A study of Homo sapiens with 2 samples.

Results

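The subunits of the transcription factor AP-1 were followed in FaDu cells, an established line from a squamous cell carcinoma of the human hypopharynx. The members were the 9 genes FOS, FOSB, FOSL1, FOSL2, JUN, JUNB, JUND, ATF3 and MAFF, taken by gene symbol from a table of 16951 genes, and all 9 were present. RNA sequencing gave 2 libraries at day 2, and the labels name 1 sample with a control shRNA and 1 with an shRNA against KIF2C, the kinesin-13 motor that shortens microtubules. The series text speaks of blank vectors for the control, the sequence of the hairpin is not stated, and both samples share the parental line and the time point. The table codes its libraries C1 and D1, and no label says which code is the control. KIF2C itself gave 783 reads for library C1 but 3036 for library D1 (log2 ratio 2.04, 95% counting interval 1.93 to 2.16), which goes against reading D as the knockdown. Every difference is therefore library D1 against library C1, and which condition each library holds is not established.

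AP-1 is a dimer of basic leucine zipper (bZIP) proteins. JUN proteins pair with each other or with FOS proteins, whereas FOS proteins need a JUN partner to bind DNA. The dimers bind the TRE site TGACTCA and related sites in genes of proliferation, invasion, inflammation and squamous differentiation. Growth factor and stress signals induce many of the subunits within minutes through the MAP kinases, and FOSL1, also called FRA1, is known from invasive squamous carcinoma.

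The estimated counts summed to 18189742 for library C1 and 18560024 for library D1, called C1 and D1 from here on. CPM are counts per 1000000 reads of a library size adjusted by TMM, a trimmed mean of the ratios between libraries. TPM, the authors' values, are transcripts per 1000000 and take transcript length into account. A single library per condition leaves the conditions untested and every difference without a replicate, and the intervals give counting error alone. All 7 genes of the squamous marker list were present in both libraries, at 999 TPM in sum in C1 and 3134 in D1. KRT5, KRT14, KRT6A, TP63 and DSG3 were at least 2-fold higher in D1, 5 of 7 against 2.4% of all genes reaching 1 CPM. EPCAM, the epithelial adhesion molecule, had 382 TPM in C1 and 325 in D1, and CDH1 had 160 and 126. Of the marker list of fibroblasts, 3 of 6 genes were in the table and none passed 1 CPM, with a summed level of 0.04 and 0.06 TPM. Of the leukocyte list, all 5 genes were in the table, with 92.5 and 81.0 TPM in sum, mostly CD68 at 69.9 and 67.5 TPM, while PTPRC, the defining leukocyte marker, had 1.25 and 0.75 TPM. The endothelial list had 3 of 4 genes in the table and summed to 29.2 and 7.40 TPM, nearly all from CDH5 at 28.7 and 6.82 TPM, with PECAM1 at 0.21 and 0.22 TPM. No marker in the table had 0 reads in both libraries, though the fibroblast markers COL3A1 and PDGFRB had 0 reads in C1 and 1 in D1. Their part in the results was not tested.

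FOSL1 was the subunit that differed most between the libraries. It was 2.14-fold higher in D1, while JUN, JUNB, FOSL2 and MAFF were lower by amounts well under 2-fold and FOS, FOSB, JUND and ATF3 lay within counting error of equality. All 9 members reached 1 CPM in C1 or D1, the expression filter. Of these, 1 was at least 2-fold higher in D1, against 2.4% of the 13225 genes past that filter, and none was at least 2-fold lower, against 4.54%. The counting interval lay above a ratio of 1 for 1 of 9 members, against 30.9% of all genes, and below it for 4 of 9, against 27.2%. A log2 ratio below 0 was found for 6 of 9 members, against 49.0% of all genes. The median log2 ratio was -0.11 over the members and 0.01 over all genes past the filter. Apart from FOSL1, the members lay between the 5th and the 95th percentile of all genes (-0.94 and 0.72). In bulk RNA, more cells of a kind and more RNA per cell cannot be told apart.

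The 4 FOS family genes encode partners that supply transactivation or, in FOSL1 and FOSL2, lack the strong carboxy-terminal activation domain of FOS. FOSL1 (NCBI gene 8061, chromosome 11 from 65892049 to 65900545 in GRCh38.p14) had 5653 reads in C1 and 11351 in D1. These correspond to 298 CPM (290 to 306) and 637 CPM (626 to 649), and the deposited levels were 406 and 792 TPM. The counting intervals of the libraries did not overlap, with D1 the higher. The log2 ratio was 1.10 (1.05 to 1.14). By TPM it ranked 340th among the 16951 genes in C1 and 162nd in D1. Its ratio ranked 248th from the top among the 13225 genes past the filter and 42nd among the 2661 abundant genes (100 CPM or more in C1 or D1), of which 67 (2.52%) were at least 2-fold higher.

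The 2-fold call of FOSL1 depended on the scaling, since the log2 ratio was 0.98 under plain library totals and 0.96 by the deposited TPM. Plain totals moved the median of all genes by -0.12 and TPM by -0.15. Relative to the median gene, FOSL1 was higher by 1.09 on the log2 scale with TMM or plain totals and by 1.10 with TPM. A change of library size shifts the ratio of every gene by nearly the same amount. The equal values for TMM and plain totals were therefore fixed in advance and are no support for the 2-fold call. In the same libraries 5 of 7 squamous markers reached 2-fold in favour of D1, against 2.4% of all genes, with KRT5 at 336 and 2061 TPM and TP63, the transcription factor of stratified epithelium, at 46.3 and 112 TPM, while EPCAM and CDH1 had log2 ratios of -0.08 and -0.19. Their part in the FOSL1 difference was not tested.

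The position of FOSL1 was examined through its neighbours, chosen after its value was seen. The 5 nearest genes on each side past the filter had log2 ratios from -0.32 to 0.95 with a median of 0.07. None of the 10 was 2-fold apart, against 2.4% of all genes at least 2-fold higher and 4.54% at least 2-fold lower. The nearest on either side, CCDC85B and C11orf68, had ratios of 0.01 (-0.09 to 0.11) and -0.01 (-0.12 to 0.10). CFL1, the actin-severing cofilin, had the highest neighbouring ratio at 0.95 (0.93 to 0.97). Among the others, DRAP1, MUS81, SART1 and BANF1 had ratios of 0.45, 0.33, 0.17 and 0.13, with intervals above 0, FIBP had 0.01, and EIF1AD and OVOL1 had -0.30 and -0.32, the last within counting error of equality. FOSL1 had a higher ratio than each of the 10, and than 98.1% of all genes past the filter.

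FOSL2 (NCBI gene 2355, chromosome 2 from 28392858 to 28417317), which encodes FRA2, had 1160 and 901 reads. Its deposited levels were 20.5 TPM in C1 and 15.2 in D1, lower in D1 with a log2 ratio of -0.27 (-0.40 to -0.15). FOS (NCBI gene 2353, chromosome 14 from 75278828 to 75282230), the founding immediate early member, had 193 and 178 reads, 10.8 and 9.51 TPM, and a log2 ratio of -0.03 (-0.33 to 0.27). FOSB (NCBI gene 2354, chromosome 19 from 45467996 to 45475179), another immediate early member, had 51 and 50 reads, 1.61 and 1.50 TPM, and a ratio of 0.06 (-0.53 to 0.65) whose sign changed with the scaling. At this depth no difference in FOS or FOSB was detectable. Without FOSL1 the FOS family summed to 32.9 TPM in C1 and 26.3 in D1.

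**Figure D1:**
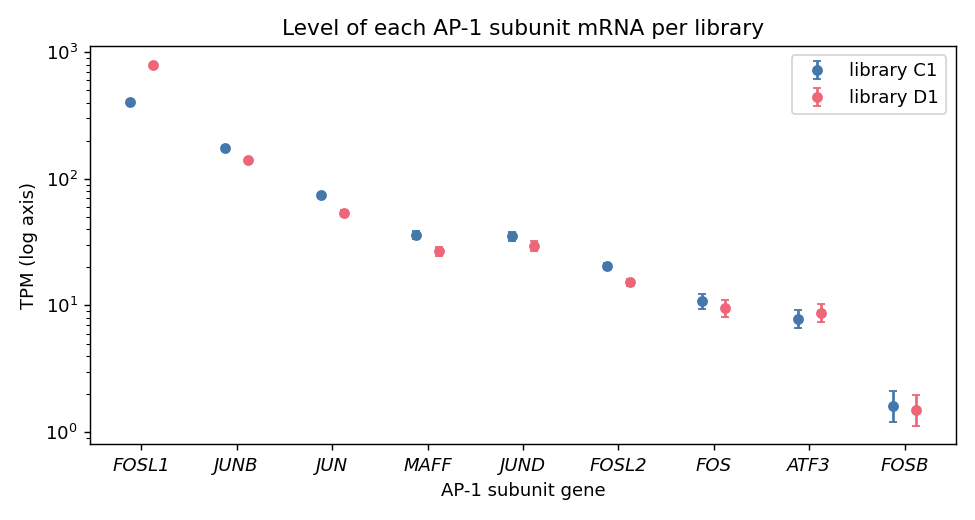
Level of each AP-1 subunit mRNA in TPM on a log axis, for C1 (blue) and library D1 (red), with bars for the 95% counting interval. FOSL1 stood highest in both libraries at 406 and 792 TPM, and FOSB lowest at 1.61 and 1.50 TPM.

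The JUN family supplies the obligate partners of the FOS proteins, and its 3 genes were all slightly below equality. JUNB (NCBI gene 3726, chromosome 19 from 12791486 to 12793315), which often restrains JUN activity, had 2743 reads in C1 and 2268 in D1, at 176 and 140 TPM. Its log2 ratio was -0.18 (-0.27 to -0.10). JUN (NCBI gene 3725, chromosome 1 from 58780791 to 58784047), the strongest activator of the family, had 2070 and 1569 reads at 73.9 and 53.7 TPM, a log2 ratio of -0.31 (-0.40 to -0.21). JUND (NCBI gene 3727, chromosome 19 from 18279694 to 18281622), the most constitutive member, had 575 and 502 reads at 35.1 and 29.3 TPM, with a ratio of -0.11 (-0.28 to 0.07) that did not differ beyond counting error. The family summed to 285 TPM in C1 and 223 in D1.

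Reads of JUNB may be mixed with those of another gene. The annotated transcripts of HOOK2, a microtubule-linked adaptor on the opposite strand, shared 229 of the 1790 JUNB subsequences of 31 bases (12.8%), and strand use in the counting is not given in the sources used here. HOOK2 had 582 and 620 reads, a log2 ratio of 0.18 (0.02 to 0.35). FOSL1 shared 135 of its 1969 subsequences (6.86%) with its pseudogene FOSL1P1. The estimated counts of JUNB and FOSL1 were whole numbers in both libraries, and a mixing of reads was not tested. FOSL1P1 was not among the genes counted, so whole counts for FOSL1 say nothing about reads from the pseudogene. No 31-base subsequence was shared between any members, and FOS, FOSL2, JUN and ATF3 shared none with any other gene. JUN and JUNB have 1 exon in every annotated coding transcript.

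ATF3 and MAFF are bZIP proteins of neighbouring families that can pair with JUN or FOS proteins. ATF3 (NCBI gene 467, chromosome 1 from 212565407 to 212620777), a stress-induced repressor, had 136 reads in C1 and 156 in D1, at 7.84 and 8.70 TPM. Its log2 ratio of 0.29 (-0.05 to 0.63) lay within counting error of equality. MAFF (NCBI gene 23764, chromosome 22 from 38201994 to 38216511), a small MAF protein without an activation domain, had 722 and 558 reads after rounding, at 36.1 and 26.9 TPM. Its log2 ratio was -0.28 (-0.44 to -0.12), lower in D1 without overlap of the counting intervals. MAFF was the only member with fractional counts, 721.95 and 558.21, and 141 of its 3002 subsequences of 31 bases (4.70%) occurred in other genes.

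**Figure D2:**
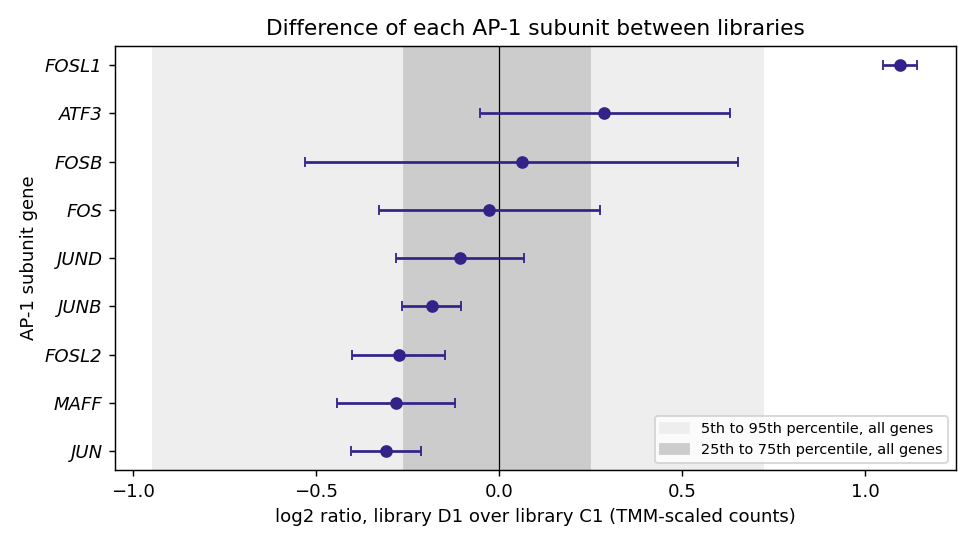
Log2 ratio of D1 over C1 for each AP-1 subunit (points) with its 95% counting interval (bars), over grey bands for the middle ranges of all 13225 genes past the filter. FOSL1 at 1.10 lies beyond the 95th percentile of all genes (0.72), and JUN at -0.31 is the lowest member.

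Per transcript length, the order of levels was FOSL1, JUNB, JUN, MAFF, JUND, FOSL2, FOS, ATF3 and FOSB in C1. In library D1 MAFF and JUND exchanged places. These neighbours did not differ beyond counting error in either library, with MAFF at 33.5 to 38.8 TPM and JUND at 32.2 to 38.0 TPM in C1, and MAFF at 24.7 to 29.2 and JUND at 26.8 to 32.0 in D1. FOS and ATF3 also overlapped in D1, at 8.16 to 11.0 and 7.39 to 10.2 TPM, but not in C1, where FOS had 9.30 to 12.4 and ATF3 6.58 to 9.27 TPM. The other neighbours in the order were separated in both libraries.

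The promoters of the 4 members whose counting interval lay below a ratio of 1 are shown. These members were picked by that value, which 27.2% of all genes share, and 2 libraries cannot show whether genes vary together. The windows come from RefSeq in GRCh38.p14 and run from 250 bases before the annotated start to 50 bases after it; 8 of 9 members matched, and FOSL1 did not. Capitals mark a TRE (TGACTCA), a CRE (TGACGTCA), a JUN-type site (TGACATCA) or a TATA sequence (TATAAA). The first 3 were searched on both strands and TATAAA on the strand shown, and no marked sites overlap. The windows are chr1:58783998-58784297 on the minus strand for JUN, chr19:12791236-12791535 on the plus strand for JUNB, chr2:28392608-28392907 on the plus strand for FOSL2 and chr22:38201744-38202043 on the plus strand for MAFF, the first of its 2 windows.
JUN: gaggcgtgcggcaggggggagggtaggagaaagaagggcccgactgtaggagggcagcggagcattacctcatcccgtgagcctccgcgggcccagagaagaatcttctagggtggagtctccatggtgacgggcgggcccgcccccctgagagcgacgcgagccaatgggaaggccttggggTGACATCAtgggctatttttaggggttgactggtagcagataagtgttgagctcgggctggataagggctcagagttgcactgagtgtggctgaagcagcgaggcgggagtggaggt
JUNB: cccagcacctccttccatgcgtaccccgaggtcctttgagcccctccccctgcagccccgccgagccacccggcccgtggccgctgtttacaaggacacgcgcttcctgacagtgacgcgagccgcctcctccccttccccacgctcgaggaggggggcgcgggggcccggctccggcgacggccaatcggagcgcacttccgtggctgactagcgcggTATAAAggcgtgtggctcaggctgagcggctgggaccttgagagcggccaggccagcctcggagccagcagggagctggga
FOSL2: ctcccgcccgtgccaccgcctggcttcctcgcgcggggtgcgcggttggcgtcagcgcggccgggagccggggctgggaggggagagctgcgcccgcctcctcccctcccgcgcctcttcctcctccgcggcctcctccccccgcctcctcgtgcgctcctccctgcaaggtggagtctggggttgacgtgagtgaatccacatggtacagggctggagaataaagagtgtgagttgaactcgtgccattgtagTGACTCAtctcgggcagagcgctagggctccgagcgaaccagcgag
MAFF: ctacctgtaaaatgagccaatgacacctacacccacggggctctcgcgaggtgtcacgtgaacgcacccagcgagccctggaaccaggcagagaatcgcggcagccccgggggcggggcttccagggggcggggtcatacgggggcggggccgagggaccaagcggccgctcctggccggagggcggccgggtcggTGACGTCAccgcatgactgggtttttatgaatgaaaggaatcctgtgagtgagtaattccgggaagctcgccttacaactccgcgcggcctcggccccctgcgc

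The 4 windows held different sites. JUN had the JUN-type site from -67 to -60 relative to its start, a sequence found in 2.61% of all 35116 promoter windows of that length. JUNB had TATAAA from -31 to -26, as did 7.33% of windows anywhere, FOSL2 a TRE from 5 to 11 (4.95% of windows), and MAFF a CRE from -54 to -47 (1.85%). Among the remaining members, JUND had a CRE from -200 to -193, ATF3 a JUN-type site from -123 to -116 in 1 of its windows and TATAAA from -230 to -225 in the other, and FOS and FOSB a TATAAA. The CArG box, the site of serum response factor, was found in none of the members' windows and in 1.29% of all windows. Sites more than 250 bases before a start were not searched, and FOSL1 had no window. These matches are a description of the letters in the windows, and nothing is drawn from them about binding.

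FOSL1 made up most of the FOS and JUN family reads in D1 and the largest part of them in C1. Of 12445 reads from the 7 FOS and JUN family genes in C1, FOSL1 had 45.4% (95% Clopper-Pearson interval 44.5 to 46.3), and of 16819 reads in D1 it had 67.5% (66.8 to 68.2). Its share was 22.1 percentage points higher in D1. A share is taken within a library, so it does not depend on the scaling between libraries. Reads favour long transcripts, and per transcript length the share of FOSL1 was 56.1% of TPM in C1 and 76.1% in D1.

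Each of the other 6 subunits had a smaller share of the reads in D1. Shares sum to the whole, so a higher share of FOSL1 lowers the others, including those of FOS and JUND, whose own ratios lay within counting error of equality. JUNB had 22.0% (21.3 to 22.8) in C1 and 13.5% (13.0 to 14.0) in D1. JUN had 16.6% (16.0 to 17.3) and 9.33% (8.89 to 9.78). FOSL2 had 9.32% (8.82 to 9.85) and 5.36% (5.02 to 5.71) of reads but 2.83% and 1.46% of TPM, since it gave 56.6 reads per TPM in C1 against 13.9 for FOSL1. JUND had 4.62% (4.26 to 5.0) and 2.98% (2.73 to 3.25). FOS had 1.55% (1.34 to 1.78) and 1.06% (0.91 to 1.23), and FOSB, the smallest, had 0.41% (0.30 to 0.54) and 0.30% (0.22 to 0.39).

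**Figure D3:**
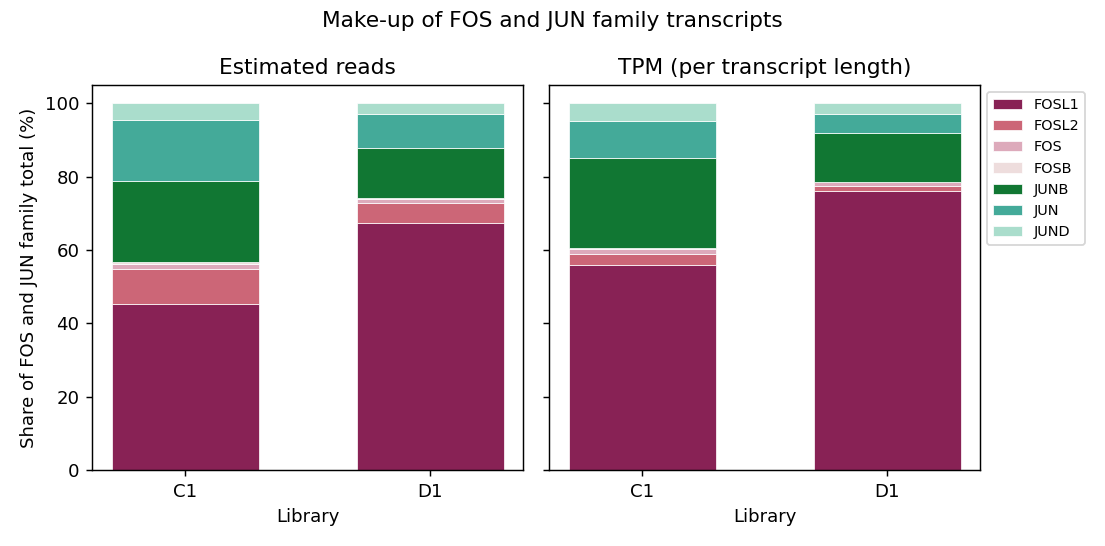
Share of each subunit in the FOS and JUN family total of each library, by estimated reads (left) and by TPM (right), in percent. FOSL1 (dark red) takes 45.4% of reads in C1 and 67.5% in D1, and 56.1% and 76.1% of TPM.

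With FOSL1 set aside, the make-up of the remaining 6 subunits was close between the libraries. Of their 6792 reads in C1 and 5468 in D1, JUNB held 40.4% (39.2 to 41.6) and 41.5% (40.2 to 42.8), JUN 30.5% (29.4 to 31.6) and 28.7% (27.5 to 29.9), and FOSL2 17.1% (16.2 to 18.0) and 16.5% (15.5 to 17.5). All 6 pairs of intervals overlapped, those of JUND, FOS and FOSB included. Within the JUN family alone, JUNB had 50.9% (49.6 to 52.3) and 52.3% (50.8 to 53.8) of reads. Within the FOS family, FOSL1 had 80.1% (79.2 to 81.0) and 91.0% (90.4 to 91.5) of reads, and 92.5% and 96.8% of TPM.

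The balance of FOS to JUN family transcripts moved with FOSL1. FOS family reads were 1.31 times the JUN family reads in C1 (1.26 to 1.36) and 2.88 times in D1 (2.78 to 2.98), or 1.54 and 3.67 times by TPM. Without FOSL1 the ratio was 0.261 (0.246 to 0.276) in C1 and 0.260 (0.243 to 0.278) in D1. In TPM, the 7 genes summed to 725 in C1 and 1042 in D1, a difference of 317 made of 386 for FOSL1 and -69.1 for the other 6 together. Transcript levels do not give the amounts of protein or of dimers.

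Genes around AP-1 were read as lists. Over all 13225 genes past the filter, 2.4% were at least 2-fold higher and 4.54% at least 2-fold lower, with a median log2 ratio of 0.01. The counts of each list stand against these shares, though the lists were chosen with earlier results of these data known. Of 25 other bZIP genes past the filter, 1 was at least 2-fold higher and 2 were lower, with a median log2 ratio of 0.00. The higher gene was JDP2, a repressor that pairs with JUN proteins, at 47.7 TPM in C1 and 101 in D1 (1.22, 1.09 to 1.35). The lower genes were MAF, a large MAF protein, with 107 and 29 reads (-1.78, -2.44 to -1.19), and BACH2, a partner of small MAF proteins named after its value was seen, with 28 and 12 reads (-1.10, -2.24 to -0.11). BACH2, at 1.48 CPM in C1 and 0.67 in D1, passed the filter only through C1, where it was higher. Its place in the count is therefore no support. ATF4, the effector of the amino acid stress response, was the most abundant of the list at 630 and 1070 TPM, with a log2 ratio of 0.90. The small MAF gene MAFK and the MAFF relative MAFG, both named after their values were seen, had ratios of -0.65 (-0.83 to -0.47) and -0.28 (-0.36 to -0.20), beside -0.28 for MAFF.

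Of 34 kinases and regulators upstream of AP-1, all past the filter, 1 was at least 2-fold higher and none lower, against 2.4% and 4.54% of all genes, with a median of 0.03. The counting interval lay above a ratio of 1 for 10 of them and below it for 10, against 30.9% and 27.2% of all genes. Examples below 2-fold were named after their values were seen. MAP2K2, a kinase that activates ERK, had 1552 and 2103 reads (0.53, 0.43 to 0.62). The stress kinase MAP3K1 had 190 and 108 reads (-0.72, -1.08 to -0.38). RPS6KA2, an ERK-activated kinase, had only 61 and 31 reads (-0.88, -1.56 to -0.24). The higher gene was RPS6KA4, which encodes the chromatin kinase MSK2 that acts at immediate early genes, with 543 and 1469 reads (1.53, 1.38 to 1.67). COPS5, a JUN-binding signalosome subunit, was the most abundant at 147 and 118 TPM. Of 22 immediate early genes outside AP-1, none was at least 2-fold higher and 1 was lower, with a median of -0.11, the same to this precision as that of the AP-1 members. The lower gene was TRIB1, a scaffold for ubiquitin ligases, with 784 and 349 reads (-1.08, -1.26 to -0.89), and IER3, a survival factor, was the most abundant at 222 and 144 TPM. Of the 22, the interval lay below a ratio of 1 for 10 and above it for 5, against 27.2% and 30.9% of all genes.

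Reported AP-1 target genes went both ways, while FOSL1 itself was higher. The lists were chosen with earlier results of these data known, so their counts beside the shares of all genes are no test. Of 9 genes of matrix proteolysis, 8 lay below 0, against 49.0% of all genes, and 4 were at least 2-fold lower, against 4.54%, with a median of -0.80. These were the collagenase MMP1 at 293 and 94.8 TPM, MMP10 at 48.5 and 17.2, MMP3 at 11.4 and 4.25, and, named after its value was seen, MMP9 at 4.61 and 1.44. PLAU, the urokinase, was the most abundant protease gene at 577 and 417 TPM. In the signal list, 8 of 9 genes were in the table and past the filter. Of these, 2 were at least 2-fold lower, the cytokines IL6 (-1.75) and CXCL8 (-1.21). Another 2 were higher, against 2.4% of all genes. They were IL1B (1.21) and, named after its value was seen, the growth factor CSF2 (1.44 from 15 and 39 reads). CSF2, at 0.79 CPM in C1 and 2.19 in D1, passed the filter only through D1, where it was higher. Its place in the count is therefore no support. VEGFA, the angiogenic factor, was the most abundant at 118 and 171 TPM, and the list median was 0.23.

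Of 9 squamous differentiation targets, 7 were in the table and 3 of these past the filter, with a median of 0.16. TGM1, the transglutaminase of the cornified envelope, was at least 2-fold higher with 96 and 294 reads (1.70, 1.37 to 2.05). That is 1 of 3, against 2.4% of all genes, and none was at least 2-fold lower, against 4.54%. KRT10 was the most abundant at 31.7 and 32.0 TPM. Of 8 growth and surface targets, 1 was at least 2-fold higher and none lower, against 2.4% and 4.54% of all genes, with a median of 0.18. The higher gene was EGFR, the receptor upstream of ERK, at 89.3 and 169 TPM (1.06, 1.02 to 1.10). The EGFR call, like that of FOSL1, was lost under plain totals and TPM. CCND1, the G1 cyclin, was the most abundant at 491 and 515 TPM.

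**Figure D4:**
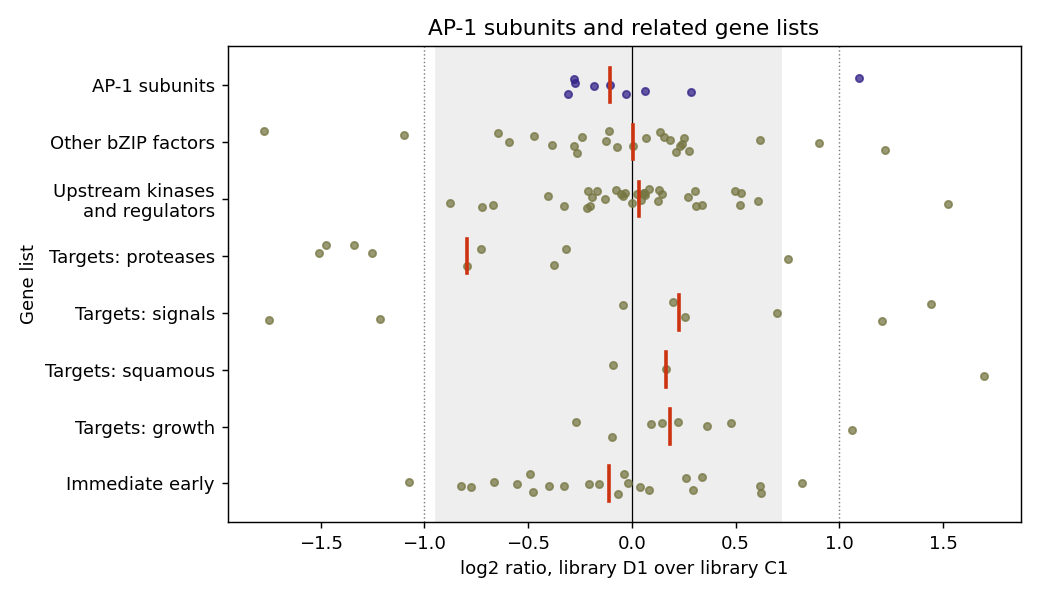
Log2 ratio of D1 over C1 for each gene past the filter (points), by list, with the list median as a red line, dotted lines at 2-fold and a grey band from the 5th to the 95th percentile of all genes. FOSL1 is the single AP-1 subunit beyond 2-fold, and the protease targets have the lowest median at -0.80.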

How the data were processed

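RNA from 2 FaDu samples was sequenced, 1 per group. The submitters' processing notes name Bowtie2, RSEM and the hg38 build. Tool versions, the annotation and the strand setting are not given in the sources used. The estimated counts per gene are unnormalized, per the file headers, and the authors also deposited TPM and FPKM values. The counts were rounded to whole numbers and scaled by TMM in edgeR 4.0.16 under R 4.3.3 (factors 1.04 for C1 and 0.960 for D1). Ratios had 0.5 counts added, and their 95% Clopper-Pearson intervals came from SciPy 1.17.1. Poisson intervals were used for levels, and intervals on TPM were scaled from those of the reads. A level of 1 CPM equals 19.0 reads for C1 and 17.8 for D1. Genes reaching 1 CPM in either library were kept, and a gene was called at 2-fold.

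Alternatives were plain totals, DESeq2 1.42.0 size factors, TPM, FPKM, 5 added counts and other filters. All members were named, with up to 6 genes per list at 2-fold and 5 CPM and the most abundant gene of each list. The members and lists were chosen with earlier results of these data known. The procedure was tested on simulated data. That test covered the ratio, its interval and the 2-fold call with known library sizes. It did not cover the TMM scaling, the filter, the shares or the list counts. Subsequences were counted in GENCODE transcripts. Column codes were tied to samples by letter alone, so libraries keep their codes. One gene of a target list is not reported here.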

Additional observations from a re-analysis of the deposited data

How the results depend on the processing

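No member's ratio changed direction where its interval excluded equality. For FOSL1 the log2 ratio was 0.98 under plain totals, 0.96 by TPM and 0.995 by FPKM, so it fell short of 2-fold in each. The number of subunits at least 2-fold higher went from 1 to 0 under plain totals and TPM, and was not counted by FPKM. Its share in C1 was 56.1% by TPM and 56.1% by FPKM, and 42.5% of the reads of all 9 members; in D1 it was 76.1%, 76.1% and 64.7%. Over all genes, calls split 318 higher to 601 lower with TMM, 240 to 742 under plain totals, 204 to 739 by TPM and 190 to 605 by FPKM. Of 40 other ratio values, 7 (in FOSL2, JUN and JUNB) left the main interval, all lower.

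List counts moved as follows, while over all genes 6.14% were higher and 9.86% lower without a filter, and 1.74% and 2.19% at 10 CPM. The 2 lower bZIP genes became 1 by TPM or with 5 counts added, 4 without a filter and 0 at 10 CPM. At 10 CPM the 4 lower proteases became 2, and the 2 higher and 2 lower signal genes 1 each. Without a filter 3 squamous targets were lower instead of 0, and 1 immediate early gene was higher instead of 0; by TPM 2 immediate early genes were lower instead of 1. The higher growth target went from 1 to 0 under plain totals and TPM. Leaving out a library was not possible with 1 per group. No paired analysis was possible because each group has 1 library and no label numbers them. Depth limits FOS, FOSB and ATF3, with 193 reads or fewer per library.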
